A study of Mus musculus with 6 samples.

Results

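The clathrin adaptor complex AP-1 was followed through its 8 annotated subunit genes, Ap1s1, Ap1s2, Ap1s3, Ap1m1, Ap1m2, Ap1g1, Ap1g2 and Ap1b1, in HL-1, a cell line grown from mouse atrial heart muscle cells. All 8 were found by symbol among the 32739 genes of the libraries, and 7 of them passed the filter on low counts, as did 12047 genes in all. The family was chosen by the higher level of a single member, Ap1s3, with BRL37344 (BRL), an agonist of the β3-adrenergic receptor. The values of Ap1s3 in that contrast are therefore given as a description without a test. The other 7 subunits were taken for belonging to the same complex, and the question was whether they shared that difference.

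The libraries came from cells of 1 line, not primary tissue, that had all been kept hypoxic for 6 h and then reoxygenated for 1 h. BRL at 5 µM or vehicle was put into the medium, and each treatment has 3 libraries. No library without hypoxia was analysed here, and no label says that the replicates were separate cultures, so a p-value reflects only the spread among these samples. Library totals lay between 4440168 and 5060049 expected counts with vehicle and between 6812810 and 8332472 with BRL. Transcripts of the mitochondrial genome took 5.03% of the counts in BRL replicate 1 and 16.5% to 21.9% in the other 5 libraries. BRL replicate 1 stood apart from the other BRL libraries over the whole transcriptome, and values without it are given where they change a call or a value markedly. The 10 cardiomyocyte and atrial markers examined, among them Nppa, Myl7, Tnnt2 and Ryr2, were all detected. Their summed level was 6886 to 7672 CPM (counts scaled to a library total of 1000000) with vehicle and 3823, 5162 and 5368 CPM in BRL replicates 1, 2 and 3. Most of the lower sum came from Myh6, the α-myosin heavy chain, the 1 marker of the 10 that passed edgeR with all 6 libraries. It had 3328 ± 305 CPM against 1326 ± 321 CPM (log2 fold change −1.33, edgeR adjusted p = 0.0117, and 1.79e-11 to 0.0933 over the alternatives). Actc1, cardiac α-actin, had 841 ± 61.5 and 455 ± 175 CPM without passing (edgeR adjusted p = 0.107). Both were lower in every BRL library. Not all 10 markers were lower with BRL. Nkx2-5 had 48.9 ± 7.68 and 63.6 ± 12.4 CPM and Gata4 118 ± 6.11 and 137 ± 22.7 CPM, with overlapping groups. Without BRL replicate 1 edgeR called 10.3% of all genes higher and 10.9% lower. Of the 10 markers it then called Nkx2-5 (log2 fold change 0.52, adjusted p = 0.00679) and Gata4 (0.35, 0.0038) higher. It called Myh6 (−1.14, 5.2e-06), Actc1 (−0.59, 0.00014) and Ryr2 (−0.29, 0.0162) lower. The summed level of 4 smooth muscle markers, mostly Acta2 and Tagln, was 2981 to 3353 CPM with vehicle and 1218, 2323 and 2566 CPM with BRL. None of the 4 passed edgeR with all 6 libraries. Without BRL replicate 1 it called Acta2 (−0.40, adjusted p = 0.00549) and Tagln (−0.22, adjusted p = 0.0278) lower. The part of these marker and mitochondrial differences in the results below was not tested. The leukocyte markers Ptprc, Csf1r and Lyz2 and the fibroblast markers Dcn and Lum had no counts in any library. The 5 fibroblast markers together came to 3.77 to 5.46 CPM with vehicle and 3.30 to 3.66 CPM with BRL. The 4 leukocyte markers summed to 2.91 to 4.19 and 1.85 to 4.63 CPM, and the 4 endothelial markers to 3.36 to 6.28 and 2.64 to 4.51 CPM.

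AP-1 is a heterotetramer of the γ and β1 large subunits, a μ1 medium subunit and a σ1 small subunit. It is recruited to the trans-Golgi network and endosomes by the GTPase ARF1 and links sorting signals in the tails of cargo proteins to clathrin. The μ1 subunit reads tyrosine-based signals, the σ1 subunit together with γ reads dileucine-based signals, and the hinge of the β1 subunit holds a clathrin-binding motif. Ap1s1, Ap1s2 and Ap1s3 encode the alternative small subunits σ1A, σ1B and σ1C, Ap1m1 and Ap1m2 the medium subunits μ1A and μ1B, and Ap1g1 and Ap1g2 the large subunits γ1 and γ2. This complex shares only its abbreviation with the transcription factor AP-1.

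The promoter windows of the 3 σ1 genes are printed because these are the paralogs compared most closely. Each runs from 250 bases before to 50 bases from the RefSeq start on, 5′ to 3′ along the gene's strand (GRCm38.p6). Ap1s3 lies at chr1:79671923-79672222 on the minus strand, Ap1s1 at chr5:137046059-137046358 on the minus strand and Ap1s2 at chrX:163908767-163909066 on the plus strand. Capitals mark TGACG, the core of the cyclic AMP response element, searched on both strands.
Ap1s3: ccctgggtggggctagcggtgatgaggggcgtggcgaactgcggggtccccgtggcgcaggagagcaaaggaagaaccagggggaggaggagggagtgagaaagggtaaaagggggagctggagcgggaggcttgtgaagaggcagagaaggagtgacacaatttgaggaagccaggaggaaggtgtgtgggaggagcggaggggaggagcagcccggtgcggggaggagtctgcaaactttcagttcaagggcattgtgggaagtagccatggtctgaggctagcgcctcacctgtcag
Ap1s1: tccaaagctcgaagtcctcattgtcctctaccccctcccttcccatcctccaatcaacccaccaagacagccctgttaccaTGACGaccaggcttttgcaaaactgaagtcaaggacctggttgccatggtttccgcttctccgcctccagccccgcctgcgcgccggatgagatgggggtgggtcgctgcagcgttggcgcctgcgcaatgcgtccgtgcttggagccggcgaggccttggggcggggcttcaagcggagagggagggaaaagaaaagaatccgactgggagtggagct
Ap1s2: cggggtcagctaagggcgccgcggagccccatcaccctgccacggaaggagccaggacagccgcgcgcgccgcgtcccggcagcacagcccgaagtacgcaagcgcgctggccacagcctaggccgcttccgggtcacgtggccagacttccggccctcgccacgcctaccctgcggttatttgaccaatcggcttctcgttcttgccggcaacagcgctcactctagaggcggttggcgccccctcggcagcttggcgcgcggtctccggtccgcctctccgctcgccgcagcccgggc
The full element TGACGTCA, which contains this core, was in none of the windows of the 7 subunit genes in the table, and 1.79% of all 32851 promoter windows held it. The core was present in the window of Ap1s1, with its first base 169 bases before the start, and in that of Ap1g1, and in 20.8% of all windows. The windows of Ap1s3 and Ap1s2 held none, which says only that these letters are not in these 300 bases.

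Ap1s3 was the subunit with the most reads in every library. Its level was 145, 136 and 137 CPM in vehicle replicates 1, 2 and 3 and 284, 301 and 336 CPM in BRL replicates 1, 2 and 3. All BRL libraries thus lay above all vehicle libraries, and BRL replicate 1, which stood apart elsewhere, was the lowest of the BRL libraries. The group means were 139 ± 5.09 and 307 ± 26.5 CPM (SD, n = 3 each), a 2.21-fold difference (log2 fold change 1.14 ± 0.10, SE). Over the 14 alternative analyses it lay between 1.07 and 1.20 on the log2 scale. In the authors' deposited log2 table the same gene read 7.31, 7.19 and 7.22 with vehicle and 8.25, 8.35 and 8.50 with BRL.

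**Figure D1:**
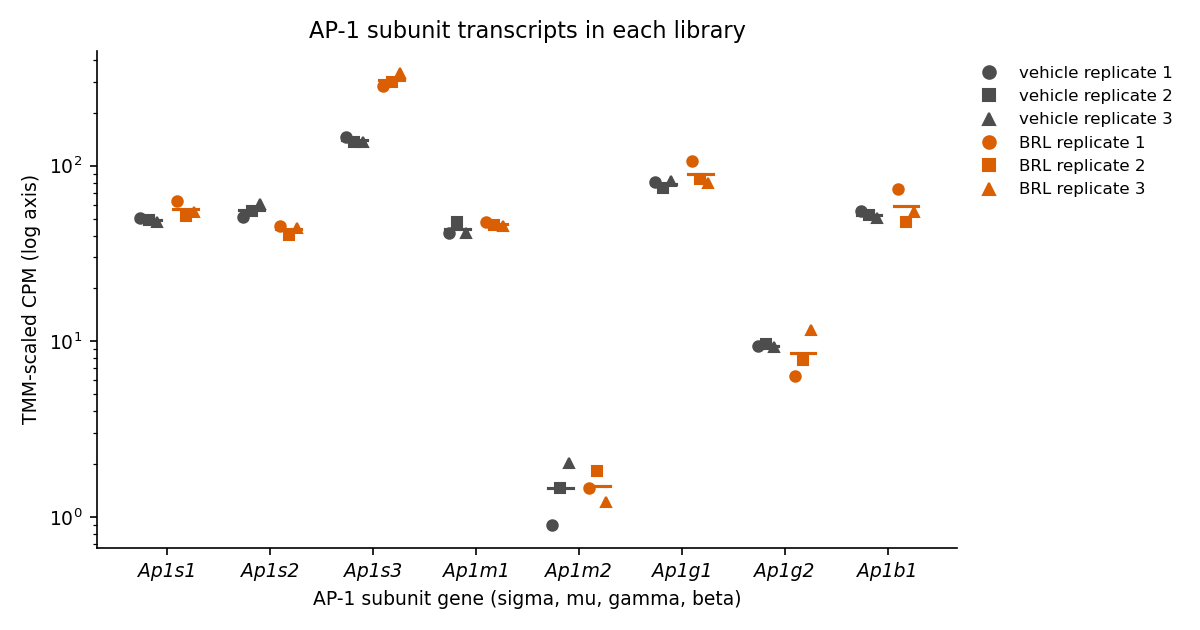
TMM-scaled CPM of the 8 AP-1 subunit genes on a log axis, with 1 point per library and a bar at each group mean. Ap1s3 lies between 136 and 145 CPM with vehicle and between 284 and 336 CPM with BRL, Ap1s2 is lower in every BRL library, and the groups of Ap1m1, Ap1m2, Ap1g1, Ap1g2 and Ap1b1 overlap.

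No tested partner of Ap1s3 differed as much between the groups. Of the 7 other subunits 6 could be tested, and none passed the quasi-likelihood test of edgeR at 0.05, adjusted over all genes after Benjamini and Hochberg. Of all 12047 genes 1.01% were called higher and 1.79% lower by the same rule. At an unadjusted p under 0.05 there was 1 of the 6, Ap1s2, as for 22.4% of all genes. DESeq2, which called 2.08% of all genes higher and 3.01% lower, and limma-voom, which called 0.789% and 1.53%, called 0 of the 6. The median log2 fold change of the 6 was 0.13, against 0.01 over all genes tested, and 0.05 without BRL replicate 1. The 95% intervals of the 6 fold changes, not adjusted for the number of genes, reached at most 1.44-fold, which was the upper bound of Ap1b1. On the lower side they reached 0.62-fold for Ap1g2 and 0.66-fold for Ap1s2.

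The differences of the 2 other σ1 paralogs had opposite signs, and neither passed the threshold with all 6 libraries. Ap1s2, encoding σ1B, had 51.2, 55.3 and 60.7 CPM with vehicle and 45.3, 40.4 and 44.1 CPM with BRL. Every BRL library was below every vehicle library, as for 15.5% of all genes. The log2 fold change was −0.36 ± 0.11 (SE) with edgeR adjusted p = 0.103, short of the threshold. Without BRL replicate 1 Ap1s2 passed (log2 fold change −0.39, edgeR adjusted p = 0.0104), in a comparison that called 10.3% of all genes higher and 10.9% lower. Its edgeR, DESeq2 and limma adjusted p ranged from 0.0104 to 0.381 over the 14 alternatives, and it was under 0.05 in that 1 only.

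Ap1s1, encoding σ1A, had 50.1, 49.2 and 47.7 CPM with vehicle and 62.7, 52.0 and 54.5 CPM with BRL. All BRL libraries were above all vehicle libraries, which was also so for 16.0% of all genes. The difference was small (log2 fold change 0.20 ± 0.11, edgeR adjusted p = 0.304), BRL replicate 1 was the highest, and without it the value was 0.13. The 95% interval ran from 0.97-fold to 1.36-fold, below the 2.21-fold measured for Ap1s3.

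**Figure D2:**
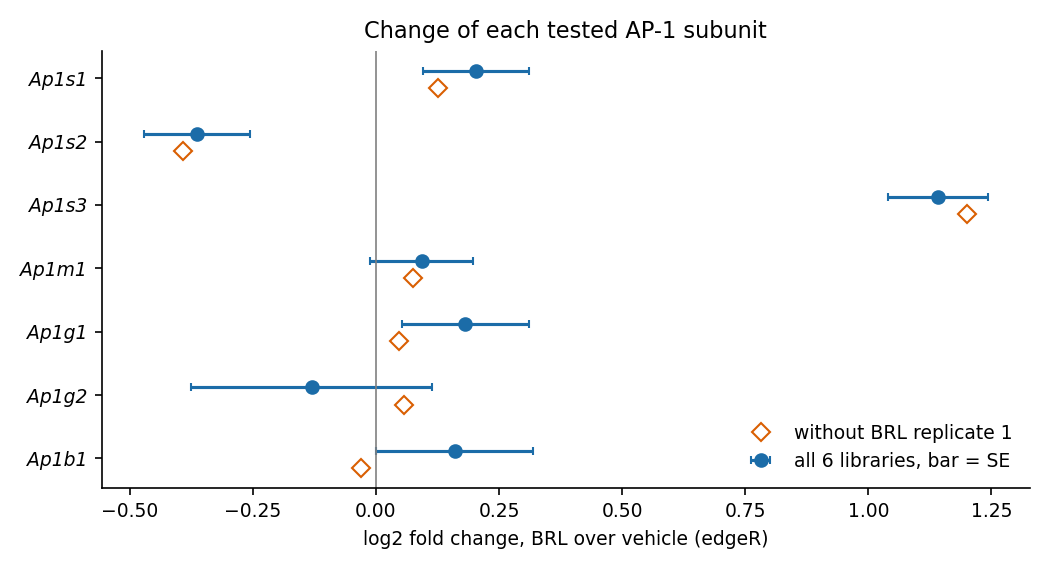
Log2 fold change of BRL over vehicle for the 7 AP-1 subunits past the filter on low counts, from edgeR. Filled points with SE bars use all 6 libraries and open diamonds leave out BRL replicate 1. Ap1s3 stands at 1.14, Ap1s2 at −0.36, and the others lie between −0.13 and 0.20.

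Levels of different genes can be compared only per transcript length, for which the third column of the authors' deposited RSEM files was multiplied by 1000000 and is given as TPM. That column has no header and was read as the RSEM fraction of transcripts, since it sums to 1 in each library. For 85.8% to 86.0% of the 1783 genes with 1 transcript, the count divided by it lay within 20% of the annotated length, up to a factor per library. TPM, shares, ratios of subunits and transcript lengths below all rest on that reading. With vehicle, Ap1s1 (88.8 ± 7.62 TPM) and Ap1s3 (83.6 ± 6.92 TPM) were the leading subunits, and their libraries overlapped. Ap1m1 (38.1 ± 4.42), Ap1g1 (37.2 ± 3.10), Ap1b1 (35.8 ± 5.54) and Ap1s2 (30.1 ± 2.56 TPM) came next, each overlapping its neighbour in the order. Ap1g2 (11.7 ± 1.87 TPM) and Ap1m2 (1.32 ± 0.48 TPM) were lowest and separate from each other. With BRL, Ap1s3 led (199.2 ± 31.9 TPM) and no longer overlapped Ap1s1 (107 ± 31.9 TPM). The next 4 places were taken by Ap1g1 (43.1 ± 15.8), Ap1m1 (42.0 ± 9.24), Ap1b1 (32.0 ± 13.7) and Ap1s2 (24.5 ± 6.81 TPM), again overlapping from one to the next. The TPM scale moves with the mitochondrial share, which was 10.4% of the RSEM fraction in BRL replicate 1 and 28.4% to 34.1% in the others, so shares within a library are used below.

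The make-up of the σ1 pool differed between the groups. Ap1s3 supplied 42.1%, 41.0% and 40.7% of σ1 transcripts with vehicle and 56.7%, 60.7% and 64.3% with BRL. The share of Ap1s1 was 43.8 ± 1.16% with vehicle and 32.1 ± 3.38% with BRL, and that of Ap1s2 was 14.9 ± 1.87% and 7.34 ± 0.50%. These shares contain Ap1s3 and are given without a test. Dividing expected counts by the mean annotated transcript length in place of the RSEM fraction put the share of Ap1s3 at 52.7% and 70.1%, so the level of the share depends on the length used. The ratio of Ap1s1 to Ap1s2, which leaves Ap1s3 out, was 3.46, 2.93 and 2.55 with vehicle and 4.47, 4.58 and 4.05 with BRL. Those groups did not overlap (two-sided exact permutation p = 0.1, the smallest that 3 against 3 libraries allow). This ratio was chosen after its members' values were seen.

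**Figure D3:**
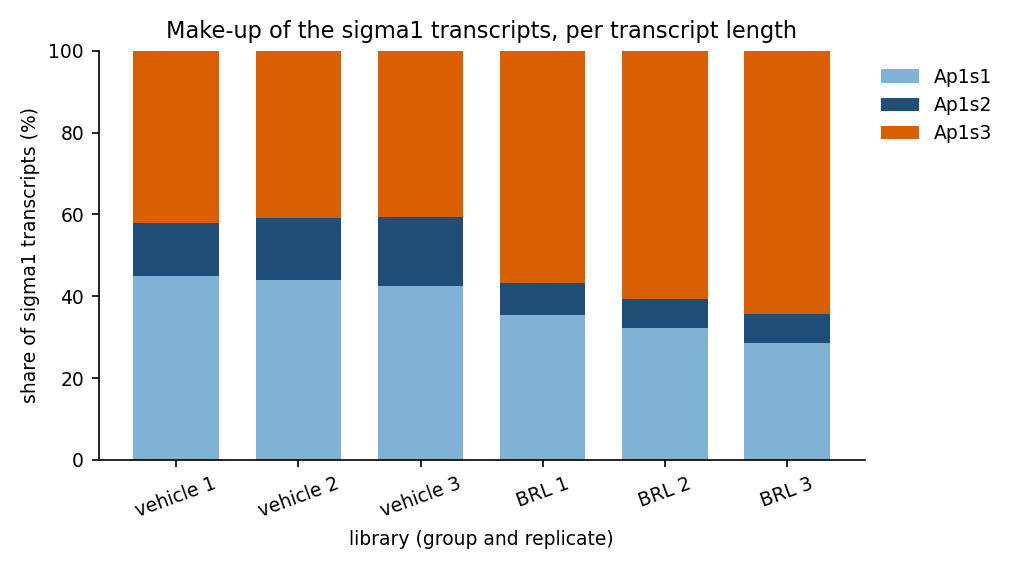
Share of Ap1s1, Ap1s2 and Ap1s3 in the σ1 transcripts of each library, in percent, from the authors' RSEM fraction. The Ap1s3 segment covers 40.7% to 42.1% in the vehicle libraries and 56.7% to 64.3% in the BRL libraries.

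Set against the single β1 subunit, σ1 transcripts together numbered 5.88, 4.75 and 6.63 per Ap1b1 transcript with vehicle and 8.51, 11.9 and 12.4 with BRL. With Ap1s3 left out the ratio was 3.38 ± 0.57 and 4.26 ± 0.52, and the groups overlapped (two-sided exact permutation p = 0.2). The ratio of μ1 to β1 transcripts was 1.11 ± 0.07 and 1.43 ± 0.26, and that of μ1 to γ was 0.81 ± 0.09 and 0.84 ± 0.11, with overlap in each case. All libraries therefore held several σ1 transcripts for each β1, μ1 or γ transcript, with either treatment. The ratios to β1 depend on the length that RSEM assigned to Ap1b1, which was 33.5% longer with BRL, as described below. Mean Ap1b1 was 35.8 TPM with vehicle and 32.0 TPM with BRL, but 52.6 and 58.8 CPM. The part of this length difference in the ratios to β1 was not tested.

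Of the medium subunits, Ap1m1, the ubiquitous μ1A, had 41.2, 47.7 and 41.3 CPM with vehicle and 47.7, 45.8 and 45.3 CPM with BRL. The groups overlapped and the difference did not pass (log2 fold change 0.09 ± 0.10, edgeR adjusted p = 0.643). Ap1m2, the μ1B form used by epithelial cells for basolateral sorting, had 4, 7 and 10 counts with vehicle and 11, 13 and 10 with BRL, which is 0.89 to 2.02 CPM. The groups overlapped, and all libraries lay above the floor of 3 counts, which is 0.360 to 0.676 CPM. It fell below the filter with all 6 libraries, and in the 4 alternatives that tested it the edgeR adjusted p was 0.818 to 0.992. Such counts leave any but a large difference undetectable. Ap1m2 made up 3.46 ± 1.61% of μ1 transcripts with vehicle and 3.32 ± 0.58% with BRL (two-sided exact permutation p = 0.9). Of 8 epithelial markers, Cdh1 had no counts in 5 libraries and 1 in BRL replicate 1, and only Krt18 and Epcam passed the filter. The summed level was 22.9 to 26.0 CPM with vehicle and 28.0 to 47.2 CPM with BRL. Most of it was Krt18, with 17.6 to 21.3 CPM with vehicle and 16.5, 42.8 and 37.2 CPM in BRL replicates 1, 2 and 3. Krt18 did not pass edgeR with all 6 libraries (log2 fold change 0.69, adjusted p = 0.238). Without BRL replicate 1 it was called higher (1.01, edgeR adjusted p = 7.80e-05). Epcam exceeded the vehicle range in BRL replicate 1 only and passed in neither comparison.

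Of the γ subunits, Ap1g1, the more abundant γ1, had 80.5, 74.5 and 82.1 CPM with vehicle and 106, 83.6 and 79.2 CPM with BRL. BRL replicate 1 was the highest library and the other 2 BRL libraries were within or near the vehicle range. The log2 fold change was 0.18 ± 0.13 (edgeR adjusted p = 0.441) and fell to 0.05 without BRL replicate 1. Ap1g2, the less abundant γ2, had 9.40, 9.63 and 9.30 CPM with vehicle and 6.34, 7.86 and 11.6 CPM with BRL. BRL libraries lay on both sides of the vehicle libraries (log2 fold change −0.13 ± 0.24, edgeR adjusted p = 0.793), and without BRL replicate 1 the sign turned (0.06). Ap1g1 made up 76.1 ± 1.48% of γ transcripts with vehicle and 90.1%, 84.0% and 71.3% in the 3 BRL libraries, which overlap the vehicle values (two-sided exact permutation p = 0.4).

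Ap1b1, the β1 subunit, had 55.0, 52.3 and 50.6 CPM with vehicle and 73.8, 47.9 and 54.6 CPM with BRL. Only BRL replicate 1 exceeded the vehicle range. The log2 fold change was 0.16 ± 0.16 (edgeR adjusted p = 0.595) with all libraries and −0.03 without BRL replicate 1. The higher means of Ap1b1 and Ap1g1 in BRL thus rested on that library.

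The search for shared sequence covered long, nearly identical stretches only, and shorter or less similar matches were not counted. No subunit matched another over at least 100 bases at 97% identity or more in GENCODE M21 transcripts. Expected counts of Ap1s1, Ap1s2, Ap1m1, Ap1m2 and Ap1b1 were whole numbers in all libraries, within 0.005. Those of Ap1s3, Ap1g1 and Ap1g2 were not whole, so some of their reads were shared with other loci. Ap1s3 matched 7 genes, of which Gm15786, Olfr981 and Olfr986 had no counts in any library. The other 4 were not among the 32739 genes of the libraries, among them Gm8532 with the longest match, 464 bases at 97.6% identity. The locus that shared reads with Ap1s3 was therefore not identified. Ap1g1 matched 29 genes, all but Gm17344 over 100 to 112 bases and among them the abundant Slc38a6, and Ap1g2 matched 2. Exons of Ap1g1 overlap Gm17344 on the opposite strand and those of Ap1g2 overlap Thtpa and Gm20687 there. Gm17344 had 58.5 to 72.8 expected counts with vehicle and 63.6 to 124 with BRL, and Thtpa 55.1 to 88.2 and 101 to 132, and reads of such overlaps cannot be told apart without strand.

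A further readout of the files is the mean length of the transcripts to which RSEM assigned a gene's reads. It was taken as the count over the fraction, scaled by 1783 genes with 1 transcript. For Ap1s3 it was 2589, 2628 and 2628 bases with vehicle and 2533, 2546 and 2527 bases with BRL. Both groups were near the 2876 bases of its protein-coding transcript and far from the 902 and 453 bases of its 2 transcripts annotated for nonsense-mediated decay. The group means differed by −3.06%, and 46.1% of genes with several transcripts differed by as much or more. These lengths come from the libraries that chose Ap1s3 and are given without a test.

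The mean transcript length of Ap1b1 moved further. It was 2433, 1969 and 2628 bases with vehicle and 3181, 2932 and 3271 bases with BRL, 33.5% longer on average. Of the Ap1b1 transcripts that GENCODE M21 shares with the files, 3 are protein-coding, with 3735 to 4085 bases, and 6 are processed transcripts of 361 to 847 bases. Of 8695 genes with several transcripts and at least 10 counts in every library, 17.9% had groups that did not overlap in length, as did 2 of the 7 subunits among them, Ap1s3 and Ap1b1. A change as large as that of Ap1b1 was seen in 1.30% of these genes. With 3 libraries against 3 the two-sided exact permutation p of Ap1b1 was 0.1, the smallest possible. Lengths of Ap1s1, Ap1s2, Ap1m1, Ap1g1 and Ap1g2 overlapped between the groups. Ap1m2, with 4 to 13 counts, stayed between 1721 and 1722 bases, its BRL values all above its vehicle values by about 1 base.

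**Figure D4:**
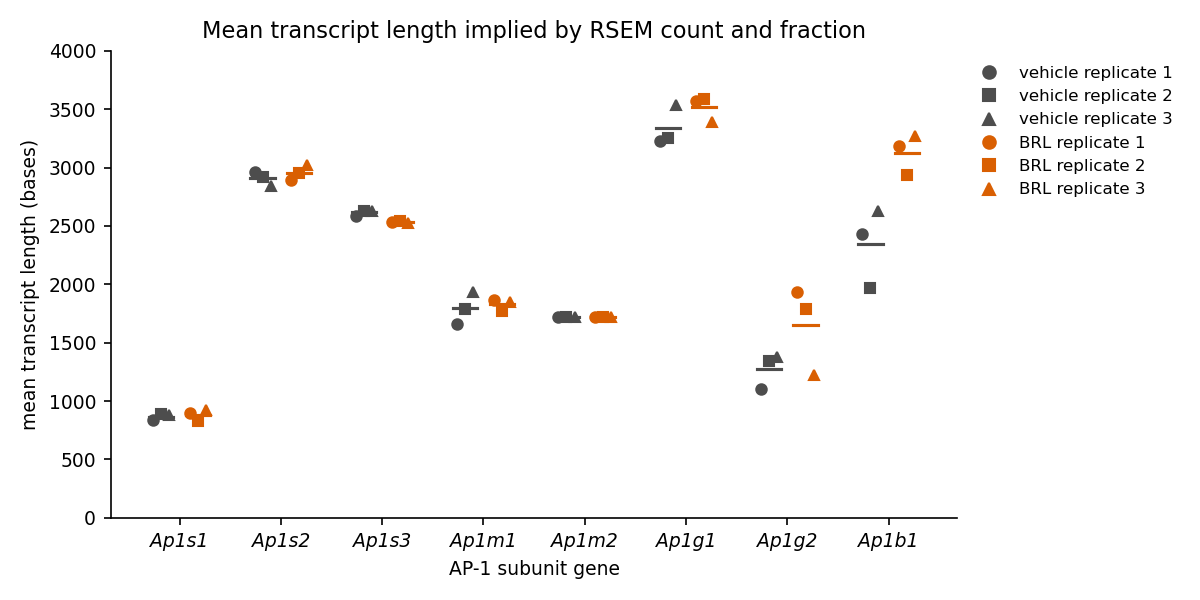
Mean transcript length in bases implied by the RSEM count and fraction for each AP-1 subunit, with 1 point per library and a bar at each group mean. Ap1b1 lies between 1969 and 2628 bases with vehicle and between 2932 and 3271 bases with BRL, and Ap1s3 stays between 2527 and 2628 bases in all libraries.

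The genes that work with AP-1 were described through 9 lists with 66 members, of which 64 were tested. In these lists 1 gene rose and none fell by edgeR with all 6 libraries, 11 had an unadjusted p under 0.05, a smaller share than the 22.4% of all genes, and the median log2 fold change was −0.01, against 0.01 over all genes. DESeq2 called 2 higher, against 2.08% of all genes, and limma-voom 1, against 0.789%. The share of 1 in 64 is close to the 1.01% of all genes called higher. Without BRL replicate 1, 7 rose and 5 fell, in the comparison that called 10.3% and 10.9% of all genes. List medians below are with all 6 libraries, and counts at an unadjusted p are to be read against the 22.4%.

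The gene that rose was Cltb, which encodes clathrin light chain b. It had 50.6, 53.2 and 47.7 CPM with vehicle and 68.7, 82.3 and 71.6 CPM with BRL, with no overlap. Its log2 fold change was 0.55 ± 0.11 (edgeR adjusted p = 0.0385). The call held in 8 of 14 alternatives, with adjusted p between 0.000547 and 0.225, and was lost when vehicle replicate 1, 2 or 3 or BRL replicate 2 or 3 was left out and with the replicate block. The log2 fold change in those 6 was 0.47 to 0.60, close to that with all libraries. Clta, the other light chain, had a log2 fold change of 0.28 ± 0.12 (edgeR adjusted p = 0.224), and Cltc, the heavy chain, of −0.13 ± 0.16 (adjusted p = 0.676). Without BRL replicate 1, edgeR called Cltc lower (−0.32, adjusted p = 0.00601, against up to 0.945 over the alternatives) and Clta stood at 0.19.

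None of 8 genes for recruiting AP-1 to membranes or regulating that step passed edgeR with all libraries. Their median log2 fold change was 0.09 (0.03 without BRL replicate 1), and 2 had an unadjusted p under 0.05. The smallest p was that of Arf1, the GTPase that recruits AP-1, with 326, 320 and 307 CPM against 448, 406 and 379 CPM (log2 fold change 0.37 ± 0.10, edgeR adjusted p = 0.0868). DESeq2 called Arf1 (adjusted p = 0.0450), as did edgeR without BRL replicate 1 (0.00514), and over the 14 alternatives its adjusted p reached 0.339. Of 16 accessory proteins 15 were tested and none passed (median log2 fold change 0.01, and −0.03 without BRL replicate 1, 2 with unadjusted p under 0.05). Gga1, a monomeric adaptor of the trans-Golgi network, came first, with 31.4 ± 1.25 against 38.7 ± 1.05 CPM (log2 fold change 0.30 ± 0.10, edgeR adjusted p = 0.131).

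Of 9 cargo proteins and sorting receptors none passed (median −0.07, and −0.11 without BRL replicate 1, 1 with unadjusted p under 0.05), and the smallest p was that of Sort1, the sortilin receptor. Sort1 had 126, 113 and 125 CPM with vehicle and 111, 85.0 and 92.2 CPM with BRL (log2 fold change −0.34 ± 0.12, edgeR adjusted p = 0.157). Of 8 SNAREs and retromer subunits none passed (median −0.05, and −0.16 without BRL replicate 1, 3 with unadjusted p under 0.05). Stx16, a SNARE of the trans-Golgi network, came first at −0.25 ± 0.10 (edgeR adjusted p = 0.197). DESeq2 and limma-voom called none in the accessory, cargo and SNARE lists.

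No subunit of the sister adaptor complexes passed with all 6 libraries. None of 5 subunits of AP-2, the adaptor of the plasma membrane, passed (median log2 fold change 0.12, 1 with unadjusted p under 0.05), nor did any of 6 tested subunits of AP-3 (median −0.11, 1 with unadjusted p under 0.05), 4 of AP-4 (median −0.07, 0) or 6 genes of AP-5 and its partners (median 0.05, 0). Without BRL replicate 1 these medians were 0.07, −0.06, −0.11 and 0.04. DESeq2 and limma-voom called none of these 21. Ap2m1, the μ2 subunit, had 212, 221 and 209 CPM with vehicle and 246, 265 and 248 CPM with BRL (0.24 ± 0.09, edgeR adjusted p = 0.170). Ap3s1, a small subunit of AP-3 related to the σ1 proteins, had 33.2 ± 0.77 and 26.0 ± 2.21 CPM (−0.35 ± 0.11, edgeR adjusted p = 0.119). In AP-4 the smallest p was that of Ap4m1 (−0.07 ± 0.11, adjusted p = 0.749) and in AP-5 that of Ap5m1 (−0.29 ± 0.13, adjusted p = 0.228). Counts of Ap2m1, Ap3s1, Ap4m1 and Ap5m1 were not whole, and exons of Sort1, Ap4m1 and Ap5m1 overlap other annotated genes. Without BRL replicate 1, edgeR called Gga1 (0.0276), Sort1 (0.00189), Ap2m1 (0.0129) and Ap3s1 (0.0265, all adjusted p), none of which passed in any of the other 13 alternatives, where their adjusted p reached 0.390, 0.429, 0.457 and 0.374. In that setting edgeR also called Ap5z1 of AP-5 (log2 fold change 0.48, adjusted p = 0.0176), Pi4k2a (0.42, 0.0178) and Furin (0.24, 0.0292) higher. Cpd (−0.32, 0.0050) and Arfgef1 (−0.50, 0.00174) were called lower there.

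**Figure D5:**
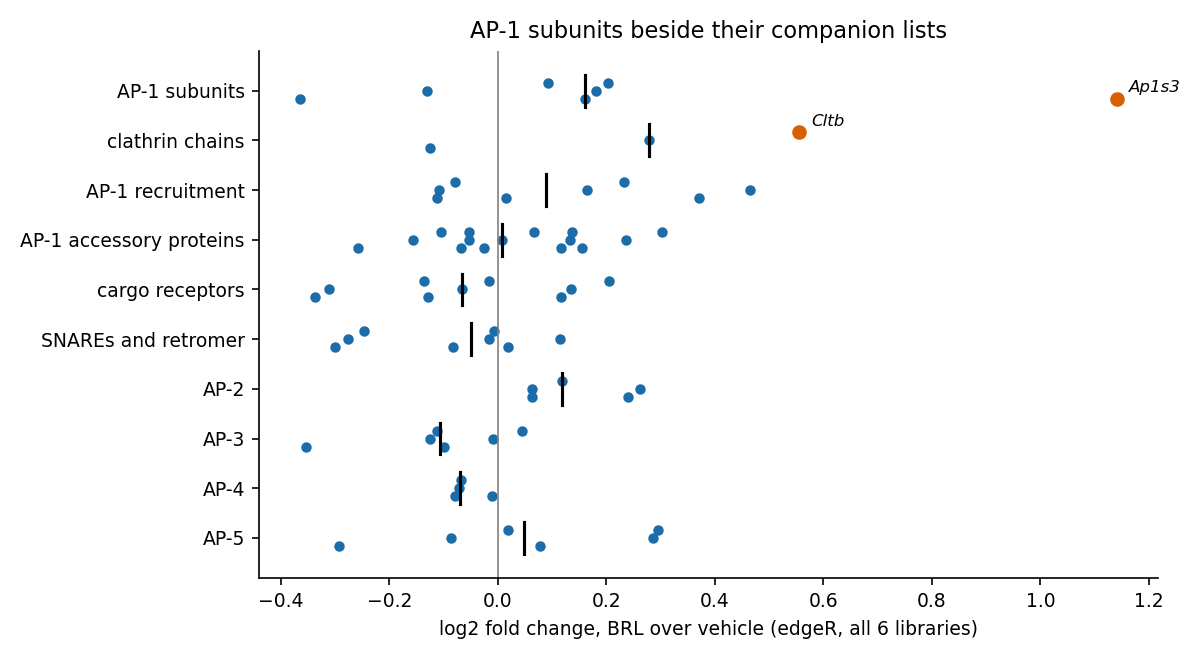
Log2 fold change of BRL over vehicle (edgeR, all 6 libraries) for the tested genes of the AP-1 complex and of 9 companion lists, with 1 point per gene and a bar at each list's median. Ap1s3 stands at 1.14 and Cltb at 0.55, and the other genes lie between −0.36 and 0.46.

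Across the 6 libraries the level of Ap1s3 was followed most closely, by Pearson correlation of log2 CPM, by Gm14303 (r = 0.998), N4bp2l1 (0.997), Gnat1 (0.997), Shisal1 (0.994) and Nxph1 (0.994). The 6 points form the 2 treatment groups, so any gene that is higher in BRL with little spread scores high, and 1.30% of 11671 genes had r of at least 0.95. N4bp2l1 had 10.1, 9.84 and 10.1 CPM with vehicle and 14.7, 15.7 and 16.8 CPM with BRL, a smaller difference than that of Ap1s3. Gnat1, the rod transducin α subunit, had 1.34 ± 0.27 and 16.6 ± 5.03 CPM, and Gm14303 had no counts in vehicle libraries and 13.5, 15.4 and 22.9 expected counts, not whole, with BRL. Shisal1 had 10.2 ± 0.41 and 14.7 ± 0.58 CPM and Nxph1 6.35 ± 0.33 and 10.1 ± 0.82 CPM. Among the subunits the same r was 0.72 for Ap1s1, 0.49 for Ap1m1, 0.44 for Ap1g1, 0.28 for Ap1b1, −0.21 for Ap1g2 and −0.91 for Ap1s2.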

How the data were processed

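RNA of 6 HL-1 libraries was sequenced after preparation with the Illumina TruSeq RNA kit, as the labels' protocols state. The sample titles give the groups and replicate numbers. The authors deposited, per library, RSEM expected counts and a column without a header that sums to 1, read here as the RSEM fraction of transcripts, scaled by length. Cutadapt, Bowtie, RSEM 1.17 and edgeR are named, with build NCBIM37, per the submitters' processing notes. The authors' deposited log2 table covers 13863 genes, and the sources used here give neither its offset and filter nor whether counting used strand. Symbols matched 88.4% of genes. GENCODE M21 and the RefSeq promoter table belong to GRCm38, another build, and served for names, lengths, overlaps and sequences.

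Expected counts were rounded and tested with edgeR 4.0.16 in R 4.3.3 (filterByExpr, minimum count 10, TMM, quasi-likelihood test, Benjamini-Hochberg over 12047 genes, threshold 0.05). The SE of a log2 fold change is its size over the square root of F. CPM are TMM-scaled. Exact permutation tests used scipy 1.17.1 and transcript matches BLAST 2.17.0. Alternatives were DESeq2 1.42.0, limma 3.58.1 (voom, and on the authors' log2 table), other scalings, no filter, a replicate block and each library left out. Chi-square per degree of freedom between libraries was 1.69 to 3.95 within vehicle, 4.20 for BRL replicates 2 and 3, and 76.8 and 89.1 for pairs with BRL replicate 1.

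The subunits and lists were chosen with earlier results of these data known. Named genes are all subunits, of each companion list those past the threshold (up to 4) or else the one of smallest p, and the 5 genes most like Ap1s3. Clta, Cltc, the marker genes and the further companions named for their values without BRL replicate 1 are outside this rule, having been picked with their values in view.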

Additional observations from a re-analysis of the deposited data

How the results depend on the processing

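Ap1s3 kept its direction in all 14 alternatives. The other genes whose direction was followed were the tested subunits and, from each companion list, those past the threshold or of smallest p. Of these, Ap1g2 turned to 0.058 and Ap1b1 to −0.029 (log2) without BRL replicate 1, and the companion Ap4m1 to 0.025 without vehicle replicate 1. Further companions also turned without BRL replicate 1, among them Arfgef2 (0.23 to −0.04), Gga2 (0.14 to −0.08) and Ap3d1 (−0.10 to 0.01). Over left-out libraries Ap1g2 ran from −0.41 to 0.058, Ap1b1 from −0.029 to 0.29 and Ap4m1 from −0.12 to 0.025. The cause was not tested. Subunits other than Ap1s3 that passed numbered 0 in 13 alternatives and 1, Ap1s2, without BRL replicate 1, so the range over left-out libraries was 0 to 1.

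Companion genes that rose numbered 0 to 7 and those that fell 0 to 5 when a library was left out, against 1 and 0 in the main analysis; 2 rose with DESeq2 and 0 with the replicate block. Over all genes, 17 to 1240 rose and 15 to 1315 fell when a library was left out, against 122 and 216. With library totals alone 77 rose and 143 fell, with no filter 282 and 330, with DESeq2 246 and 355, and with the replicate block 63 and 150. No same-numbered pair of libraries deviated together with a correlation over 0.1 except replicate 1 (0.102, against −0.02 and −0.02), so the numbers were not taken to pair the samples.

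With counts per mean annotated transcript length, the shares were 52.7% and 70.1% for Ap1s3, 98.3% and 98.4% for Ap1m1 and, with vehicle, 85.5% for Ap1g1. Among the subunits, depth limits Ap1m2 most, with at most 13 counts.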
